A study of Rattus norvegicus with 24 samples.

Results

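Transmitter identity genes are the genes that let a neuron make, load and release a given transmitter. The 10 listed here were Slc17a6, Slc17a7, Slc17a8, Slc32a1, Gad1, Gad2, Slc6a5, Chat, Slc18a3 and Ache, chosen by name as probes carrying the symbol in the platform annotation. Of these, 8 had exactly 1 probe, out of 15097 probes with a single symbol and 27342 probes in all. All 8 lay above the filter on low signal (a mean log2 of 5.05, which 23240 probes passed). No probe with a single symbol carried Chat or Ache in the annotation used here, and both were not analysed here. The 323 probes with several symbols were not searched for them.

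The RNA came from thoracic propriospinal (TPS) neurons, spinal neurons whose axons run within the cord and link its segments, in female Long-Evans rats of 77 ± 10 days. All animals had received Fluoro-Gold, a tracer carried back along axons to the cell body, in the lumbosacral enlargement, and the labelled cells were cut out of the thoracic gray matter by laser and measured on Affymetrix Rat Gene 1.0 ST arrays, 1 array per animal. The tested animals had a complete low thoracic transection 1 week after the tracer and were examined 3 days or 1 week later (4 animals each) or 2 weeks or 1 month later (2 animals each). The uninjured controls, with tracer and no transection, are called 4-day, 2-week and 1-month controls after their labels (n = 4 each). The study's methods place them 10 days, 3 weeks and 5 weeks after the tracer, and match the 4-day controls to both the 3-day and the 1-week animals. Median intensity ran from 73.6 to 81.3 over the 24 arrays. It was 73.7 to 75.0 in 1-month transected animals and 73.6 to 75.6 in 1-month controls, against 79.6 to 80.3 in 2-week transected animals and 78.6 to 80.7 in 2-week controls. In uninjured arrays 13 of 18 neuron markers stood above 90% of probes, as did 9 of 13 astrocyte, 9 of 12 oligodendrocyte, 1 of 19 microglia and macrophage and 0 of 5 motor neuron markers.

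A neuron's transmitter follows from the enzymes that make it and the transporters that load it into vesicles. Glutamatergic cells carry a vesicular glutamate transporter. GABAergic cells carry glutamate decarboxylase, glycinergic cells take glycine up through GlyT2, and both load their transmitter through the same vesicular transporter. In the intermediate gray matter propriospinal cells of excitatory and inhibitory type lie side by side, and each sample here pools many cells. Fewer cells of a type and less RNA per cell cannot be told apart in such a pool.

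The axotomy comparisons asked whether cutting the axons altered these genes. None of the 8 genes passed the test for a change at 3 days, 1 week, 2 weeks or 1 month. In the limma fit across all tested probes, 0 of 8 passed an adjusted p of 0.05 in each of the 4 comparisons, and 0 reached an unadjusted p of 0.05. The methods' t-test also called 0 in each. Over all tested probes that test called 0 at 3 days, 1 week and 2 weeks, and 2 at 1 month. Its 0 of 8 therefore cannot set these genes apart from the rest. The paper used this kind of test at each time for the genes it set against PCR. It tested the arrays as a whole by a 2-way analysis of variance. The counts of the methods' test here and below are therefore not results of the paper's own test of the arrays. Over all tested probes limma called 2.89% at 3 days and 0% at 1 week, 0% at 2 weeks and 0% at 1 month. Unadjusted limma p under 0.05 fell on 14.2%, 4.44%, 5.29% and 3.44% of them in that order of times. The 32 log2 differences ran from -0.21 to 0.30, and the smallest adjusted p was 0.551. All 32 confidence intervals (95%) lay within 1 log2 unit of 0 and 27 lay within 0.5, with outer bounds of 0.641-fold and 1.88-fold. The log2 difference averaged over the 4 times called 0 of 8 (limma, smallest adjusted p 0.736, none at an unadjusted p of 0.05), against 0.404% of tested probes called and 8.87% at that unadjusted p.

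**Figure D1:**
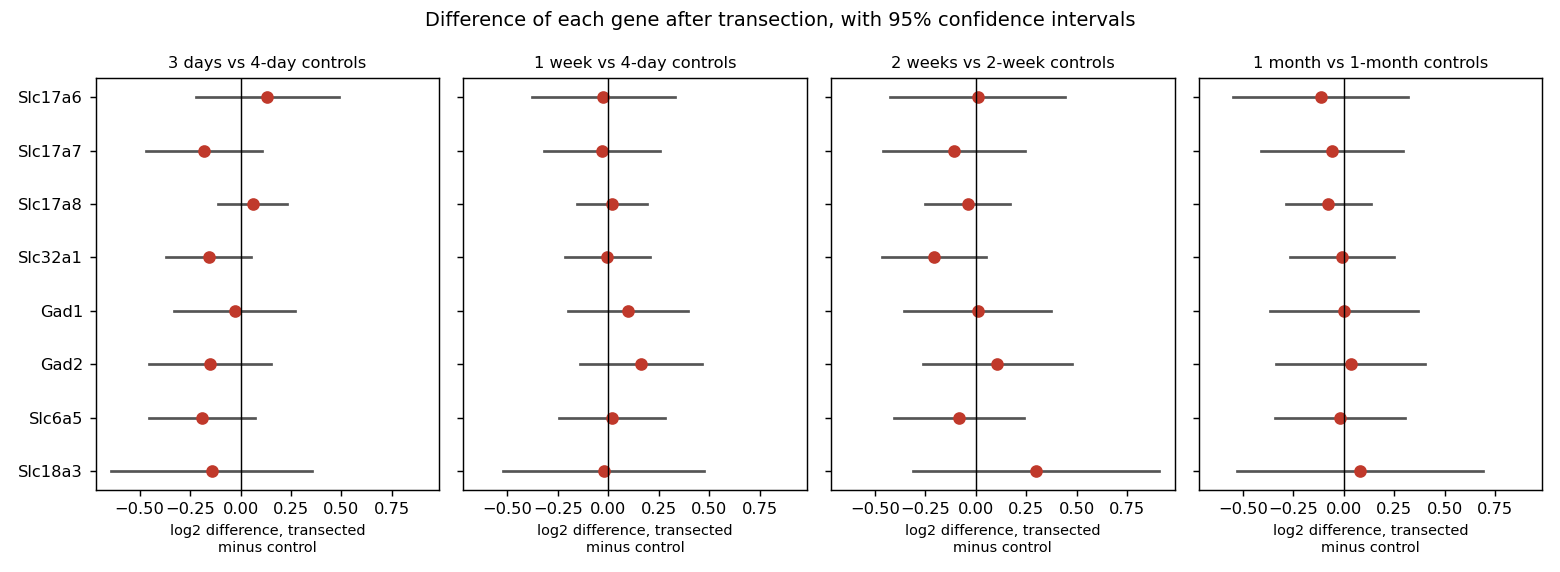
Log2 difference (horizontal axis, transected minus matched control) of the 8 genes (rows) at the 4 times after transection (panels), with points for the fitted difference and lines for its 95% confidence interval. Every interval crosses 0, and the widest, for Slc18a3 at 2 weeks, runs from -0.31 to 0.91.

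Slc17a6 (probe 10707325) encodes VGLUT2, the main vesicular glutamate transporter of spinal excitatory interneurons. Its log2 intensity in the 12 uninjured arrays was 8.89 ± 0.23 (SD), and 88.6% of all probes stood at or below that mean. A probe's brightness depends on its sequence as well as on its transcript, so such shares place a probe's signal and do not rank the genes. At 3 days the arrays read 9.01, 8.68, 9.55 and 8.39 in transected animals, against 8.97, 8.70, 8.51 and 8.93 in 4-day controls. The highest and the lowest of all 24 values were both in the 3-day group (animals 3 and 4), and the groups overlapped. The log2 difference was 0.13 (SE 0.17, limma adjusted p 0.834), and it was 0.31 without 3-day animal 4 (adjusted p 0.469) and -0.08 without 3-day animal 3. At 1 week the transected animals read 8.96, 8.54, 8.81 and 8.70, a log2 difference of -0.02 (SE 0.17) from the same controls. At 2 weeks both transected animals read 8.79, against 8.67, 9.04, 8.60 and 8.82 in 2-week controls. At 1 month the values were 8.92 and 9.09 in transected animals, against 9.10, 9.14, 9.05 and 9.19 in 1-month controls. The log2 difference was 0.01 (SE 0.21) at 2 weeks and -0.11 (SE 0.21) at 1 month, and at both times the groups overlapped.

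Slc17a7 (probe 10706734) encodes VGLUT1, best known from primary afferent and corticospinal terminals, and Slc17a8 (probe 10901735) encodes VGLUT3, found in small sets of neurons that often use another transmitter too. Slc17a7 had an uninjured log2 intensity of 6.54 ± 0.23 (56.3% of probes at or below it) and Slc17a8 had 5.54 ± 0.12 (29.2% of probes at or below it, n = 12 arrays each). Their ranges over all 24 arrays were 6.06 to 6.91 for Slc17a7 and 5.26 to 5.83 for Slc17a8. Slc17a7 had the lower mean in transected animals in all 4 comparisons, by -0.18 at 3 days, -0.03 at 1 week, -0.11 at 2 weeks and -0.06 at 1 month on the log2 scale, and none passed the test (limma adjusted p 0.65 or more). The sign turned at 1 week without transected animal 2 (0.08) or 4-day control 2 (0.09) and at 2 weeks without transected animal 4 (0.11), and the 3-day value ran from -0.26 to -0.06 over single arrays left out. The comparisons at 3 days and 1 week share their 4 control arrays. Slc17a8 differed by 0.06, 0.02, -0.04 and -0.08 at the 4 times in order.

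Slc32a1 (probe 10841774) encodes the vesicular transporter that inhibitory neurons use for both GABA and glycine. Its uninjured log2 intensity was 10.80 ± 0.13, with 97.3% of probes at or below it, the brightest probe of the 8. At 3 days it read 10.68, 10.43, 10.74 and 10.26 in transected animals, against 10.69, 10.58, 10.66 and 10.82 in 4-day controls. 2 of the 3-day animals lay below every one of those controls, and the other two lay among them. The log2 difference was -0.16 (SE 0.10, limma adjusted p 0.551), and -0.07 without 3-day animal 4. At 1 week the transected animals read 10.65, 10.80, 10.52 and 10.76, a log2 difference of -0.00 (SE 0.10). At 2 weeks the 2 transected animals read 10.50 and 10.77, against 10.95, 10.82, 10.78 and 10.82 in 2-week controls. Here the groups did not overlap, the only such case among the 32, and 17.7% of tested probes did the same at that time with these group sizes. The log2 difference of -0.21 (SE 0.12) had the smallest unadjusted p of the 32 (0.106, limma adjusted p 0.959), and it was -0.07 with only the transected animal at 10.77 and -0.35 with only the one at 10.50. At 1 month it read 10.81 and 10.91 in transected animals, against 10.68, 10.89, 10.96 and 10.96 in 1-month controls, a log2 difference of -0.01 (SE 0.12). Groups without overlap made up 5.51% of tested probes at 3 days, 1.76% at 1 week and 13.5% at 1 month, and none of the 8 genes was among them.

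Gad1 (probe 10836734) and Gad2 (probe 10796751) encode the forms of glutamate decarboxylase, GAD67 and GAD65, that make GABA. GAD67 is spread through the cell and GAD65 is found mostly at terminals. The uninjured log2 intensities were 7.13 ± 0.21 for Gad1 (68.2% of probes at or below it) and 8.68 ± 0.26 for Gad2 (87.0% at or below it, n = 12 arrays each). At 3 days Gad2 read 8.51, 8.49, 8.94 and 8.11 in transected animals, against 8.56, 8.79, 8.51 and 8.81 in 4-day controls. Its 3-day values held both the lowest of all 24 arrays (animal 4) and a value above every 4-day control (animal 3). At 1 week it read 8.98, 8.75, 8.96 and 8.62 in transected animals, 2 of them above every 4-day control. The log2 differences were -0.15 at 3 days and 0.16 at 1 week (SE 0.14 each, limma adjusted p 0.745 and 0.999), and -0.02 at 3 days without animal 4.

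The 3-day and 1-week animals share their controls and can be set against each other directly. Gad2 was lower at 3 days by -0.31 on the log2 scale (SE 0.14, unadjusted p 0.0417, limma adjusted p 0.370), the only one of the 8 genes below an unadjusted p of 0.05 (12.3% of tested probes). It was -0.18 without 3-day animal 4 and -0.46 without 3-day animal 3, and leaving out any of 5 of the 8 arrays took its unadjusted p above 0.05. The test called 0 of 8, against 2.47% of tested probes, and the methods' t-test called 0. The methods' test called 0 of all tested probes here too, so its result cannot set these genes apart from the rest. At 2 weeks Gad2 read 8.44 and 8.68 in transected animals, against 8.30, 8.47, 8.42 and 8.62 in 2-week controls. At 1 month it read 8.85 and 9.07 in transected animals, against 8.58, 8.94, 9.06 and 9.11 in 1-month controls. The groups overlapped at both times, with log2 differences of 0.11 and 0.04 (SE 0.18 each). Gad1 ran from 6.68 to 7.55 over all 24 arrays, and its 4 differences lay between -0.03 at 3 days and 0.10 at 1 week.

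Slc6a5 (probe 10707256) encodes GlyT2, the plasma membrane transporter that refills glycinergic terminals and marks glycinergic neurons. Its uninjured log2 intensity was 9.54 ± 0.29, with 92.6% of probes at or below it. At 3 days it read 9.50, 9.35, 9.45 and 8.88 in transected animals, against 9.57, 9.39, 9.39 and 9.59 in 4-day controls. 3 of the 3-day animals lay close to or among the controls and animal 4 lay far below them. The log2 difference of -0.19 (SE 0.13, limma adjusted p 0.571) was -0.05 without that animal. At 1 week the transected animals read 9.65, 9.27, 9.59 and 9.50, on both sides of the same controls. At 2 weeks they read 9.18 and 9.22, against 9.53, 9.19, 9.10 and 9.30 in 2-week controls. At 1 month they read 9.73 and 9.96, against 9.65, 9.88, 10.04 and 9.88 in 1-month controls. The groups overlapped at 1 week, 2 weeks and 1 month, with log2 differences of 0.02, -0.08 and -0.02.

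Slc18a3 (probe 10790340) encodes VAChT, which loads acetylcholine into vesicles. In RefSeq (GRCr8, chromosome 16) the gene lies inside the interval of Chat, the acetylcholine synthesizing enzyme. Slc18a3 was the most variable of the 8 probes, with an SD of 0.38 over the 24 arrays, larger than that of 92.4% of tested probes (median 0.19). Its uninjured log2 intensity was 6.62 ± 0.42 (58.1% of probes at or below it). At 3 days it read 6.03, 6.07, 6.69 and 6.58 in transected animals, and at 1 week 6.34, 6.56, 6.30 and 6.65, against 6.32, 5.65, 7.05 and 6.93 in 4-day controls. These 4 controls spanned more than either transected group, from the lowest of all 24 values to 7.05. The log2 differences were -0.14 at 3 days and -0.02 at 1 week (SE 0.24 each). 4-day controls 3 and 4 had the lowest array quality weights of the 24 (0.328 and 0.477). With 4-day controls 1 and 2 alone, a setting added after the data were seen, the differences were 0.36 and 0.48 (limma adjusted p 0.611 and 0.984). Both of these controls read lower for Slc18a3 than the controls left out. With single arrays left out the differences ran from -0.42 to 0.04 at 3 days and from -0.30 to 0.16 at 1 week. At 2 weeks the values were 7.19 and 6.96 in transected animals, against 7.30, 6.74, 6.46 and 6.60 in 2-week controls. At 1 month they were 6.70 and 6.63 in transected animals, against 6.35, 6.88, 6.67 and 6.44 in 1-month controls. The log2 differences of 0.30 and 0.08 (SE 0.29 each) were smaller than or close to their errors.

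**Figure D2:**
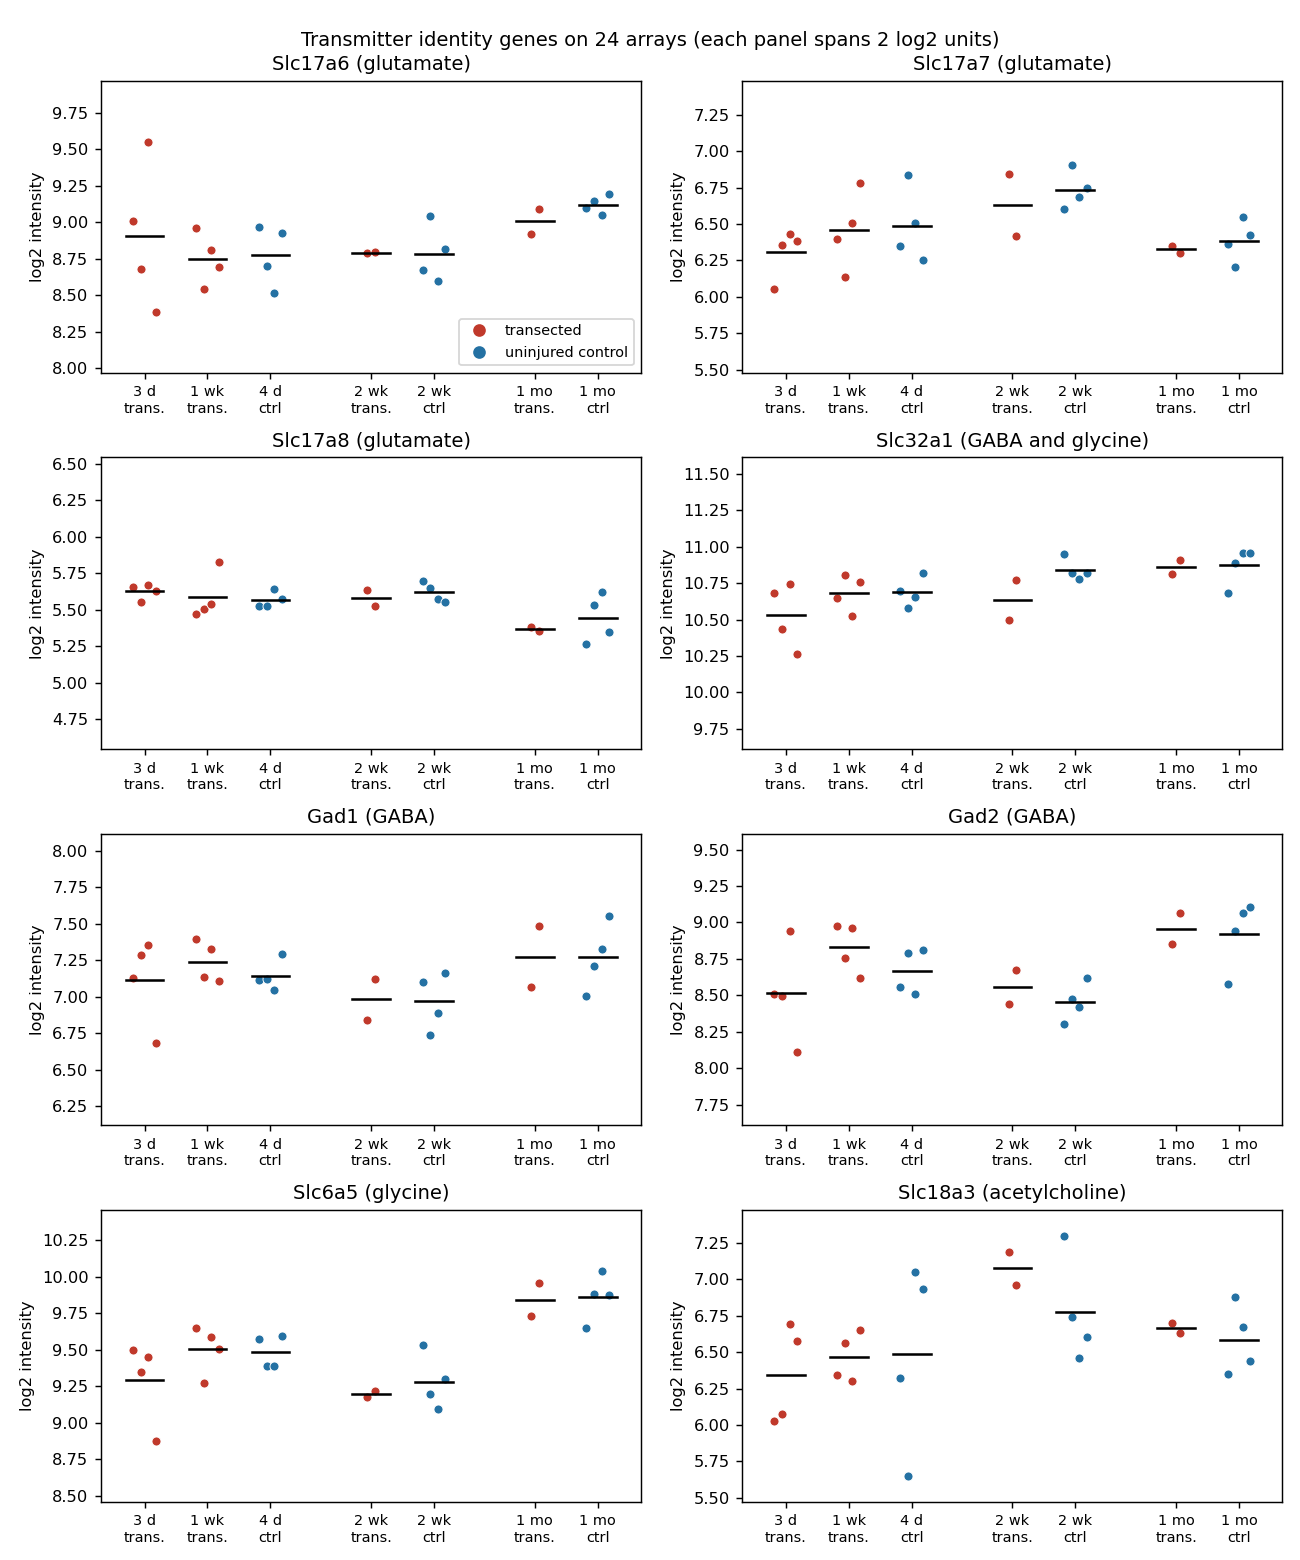
Log2 intensity (vertical axis) of the 8 genes on each of the 24 arrays (points), by group, with transected animals in red left of their uninjured controls in blue and black bars for group means. Each panel spans 2 log2 units. Transected and control points overlap in every panel and at every time except for Slc32a1 at 2 weeks. On average Slc6a5, Gad2, Gad1, Slc17a6 and Slc32a1 stand higher in both 1-month groups than in both 2-week groups. Slc17a7, Slc17a8 and Slc18a3 stand lower there.

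3-day animal 4 held the lowest of the 24 values for 5 of the 8 genes, Slc17a6, Slc32a1, Gad1, Gad2 and Slc6a5, while 6.7% of tested probes were lowest on that array. The same array had the lowest sum over the 18 neuron markers measured (32243.9 in intensity). It ranked 22 of 24, counting from the lowest, for both the microglia and macrophage sum and the endothelial and mural sum. 3-day animals 1 and 2 ranked higher for both of these sums, at 24 and 23. The whole 3-day group had microglia and macrophage sums (19 genes) of 11079 to 15092, against 4113 to 9722 in 4-day controls, and neuron sums of 32244 to 35262, against 32646 to 35744. At 3 days 6 of the 8 genes had a lower mean than in controls, with a median log2 difference of -0.15, against -0.01 over all tested probes. Without animal 4 it was 5 of 8, with a median of -0.03. The part of glial and neuronal content in these differences was not tested.

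The signal of Slc17a6 minus that of Slc32a1 within an array gave an excitatory against inhibitory reading. A shift common to all probes of an array cancels in it, but a shift that depends on a probe's signal does not. It averaged -1.62 ± 0.30 at 3 days and -1.93 ± 0.28 at 1 week in transected animals, against -1.91 ± 0.17 in 4-day controls (log2, SD, n = 4 each). 3-day animal 3 stood apart at -1.20, and the other three 3-day animals averaged -1.77. It averaged -1.84 in the 2 transected animals at 2 weeks, against -2.06 ± 0.22 in 2-week controls. At 1 month it averaged -1.86 in the 2 transected animals, against -1.75 ± 0.13 in 1-month controls. The zero point of this difference is set by the probes, and the ranges of transected and control arrays overlapped at each time.

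The comparison of the 3 control groups asked what time after the tracer did without any injury. Between 1-month and 2-week controls, Slc6a5 and Gad2 were higher at 1 month, and the other 6 genes did not pass the test. Slc6a5 averaged 9.86 ± 0.16 in 1-month controls and 9.28 ± 0.19 in 2-week controls, without overlap, a log2 difference of 0.58 (SE 0.13, 95% interval 0.32 to 0.84, limma adjusted p 0.0110). Gad2 averaged 8.92 ± 0.24 in 1-month controls and 8.45 ± 0.13 in 2-week controls, with overlap, a log2 difference of 0.47 (SE 0.14, 95% interval 0.17 to 0.77, limma adjusted p 0.0446). The methods' t-test kept Slc6a5 (adjusted p 0.0495) and not Gad2 (adjusted p 0.0869), and leaving out any of 6 of the 8 arrays ended the Gad2 call. Quantile or cyclic loess normalization of the values ended it too, with a log2 difference of 0.31 under each. The methods' test called 1543 of all 23240 tested probes between these controls.

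The count of 2 of 8, both higher, stands beside 10.2% of all tested probes called between these controls and 6.18% called higher. An unadjusted p under 0.05 was reached by 5 of 8 genes and by 30.1% of tested probes. Among the 5469 probes in the brightest 20 percent, 18.8% were called and 16.5% were higher at 1 month, with a median log2 difference of 0.12, against -0.08 over the other tested probes. Gad1, at 7.27 ± 0.23 in 1-month controls and 6.97 ± 0.19 in 2-week controls, differed by 0.30 (unadjusted p 0.0485, limma adjusted p 0.163). Slc17a7 differed by -0.35 (unadjusted p 0.0193, adjusted p 0.0972) and Slc17a8 by -0.18 (unadjusted p 0.0433, adjusted p 0.153), both lower at 1 month. Slc17a6 was 0.34 higher without overlap (adjusted p 0.187), and Slc32a1 differed by 0.03 (SE 0.10). The groups did not overlap for 3 of the 8 genes, Slc6a5, Slc17a6 and Slc17a7, against 23% of tested probes.

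Summed neuron markers were 35850 to 36854 in 1-month controls and 33619 to 35441 in 2-week controls. Of the 13 astrocyte markers tested, 7 were also higher at 1 month, as were 3 of 12 oligodendrocyte markers and 2 of 18 neuron markers. The same call fell on 6.18% of all tested probes, and on 16.5% of the 5469 probes above the 80th percentile of signal. Whether any of these marker counts differs from such a share was not tested. Time after the tracer, age and any handling of a whole group cannot be told apart here, and the part of cell content in the Slc6a5 and Gad2 differences was not tested.

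The transected animals were also compared between 1 month and 2 weeks, on arrays the controls did not share, in a comparison added after the data were seen. Their median intensity too was lower at 1 month (73.7 to 75.0) than at 2 weeks (79.6 to 80.3). Probes above the 80th percentile had a median log2 difference of 0.08, against -0.08 over the other tested probes. The part of this shift of whole groups in the differences of the 8 genes was not tested. Slc6a5 averaged 9.84 at 1 month and 9.20 at 2 weeks (n = 2 each), a log2 difference of 0.65 (95% interval 0.28 to 1.02, unadjusted p 0.0016, limma adjusted p 0.218). Gad2 averaged 8.96 at 1 month and 8.56 at 2 weeks, a log2 difference of 0.40 (95% interval -0.03 to 0.82, limma adjusted p 0.445). None of the 8 passed the adjusted test and 1 had an unadjusted p under 0.05, against 0.0215% of tested probes called and 12% at that unadjusted p. With 2 arrays a group, 7 of 8 genes did not overlap and 52.3% of tested probes did not either.

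Against 4-day controls, 1-month controls had Slc6a5 higher by 0.38 (SE 0.13, unadjusted p 0.00717, limma adjusted p 0.215), the 1 gene of 8 with an unadjusted p under 0.05 (13.2% of tested probes). None of the 8 passed in limma or in the methods' t-test, against 0.0043% of tested probes. Slc6a5 and Slc17a6 did not overlap in that comparison, against 5.58% of tested probes. In it the methods' test called 0 of all tested probes. Between 2-week and 4-day controls 0 of 8 genes passed in limma or in the methods' t-test, 0 had an unadjusted p under 0.05 in limma (14.3% of tested probes), and 0% of tested probes were called.

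**Figure D3:**
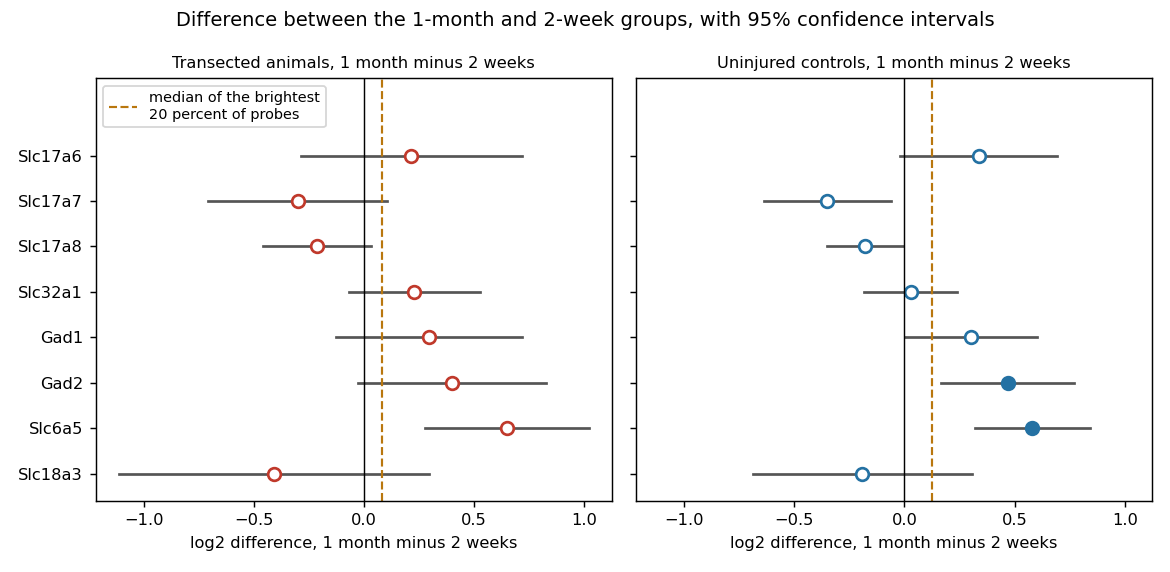
Log2 difference (horizontal axis, 1 month minus 2 weeks) of the 8 genes (rows) in transected animals (left, n = 2 each) and in uninjured controls (right, n = 4 each), with 95% confidence intervals. Filled points passed the limma test (adjusted p under 0.05), and the dashed line is the median of the brightest 20 percent of probes. Slc6a5 stands at 0.65 in transected animals and 0.58 in controls, and Gad2 at 0.40 in transected animals and 0.47 in controls.

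The 300 bases around the starts of the genes that passed (250 before and 50 after, forward strand, RefSeq GRCr8) are shown because both moved together between the controls. Capitals mark the E-box CANNTG, a letter pattern that reads the same on both strands and is a core of many basic helix-loop-helix factor sites.
Slc6a5 (chr1:108781303-108781602): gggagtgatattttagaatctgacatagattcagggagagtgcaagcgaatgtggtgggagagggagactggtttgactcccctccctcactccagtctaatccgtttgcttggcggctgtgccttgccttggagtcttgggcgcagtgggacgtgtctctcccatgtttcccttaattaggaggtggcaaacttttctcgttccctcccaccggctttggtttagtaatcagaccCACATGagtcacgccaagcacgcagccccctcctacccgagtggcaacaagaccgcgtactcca
Gad2 (chr17:89671468-89671767): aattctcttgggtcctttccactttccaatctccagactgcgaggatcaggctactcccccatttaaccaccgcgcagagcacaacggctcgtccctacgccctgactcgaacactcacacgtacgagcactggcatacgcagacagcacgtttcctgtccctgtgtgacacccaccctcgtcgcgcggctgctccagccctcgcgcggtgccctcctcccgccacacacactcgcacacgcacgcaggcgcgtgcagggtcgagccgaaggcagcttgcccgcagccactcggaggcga
The Slc6a5 window held 1 E-box, CACATG, and the Gad2 window held 0. The E-box stood in 8 of the 10 listed genes' windows and in 72.1% of 33469 rat windows of the same length. The GC box GGGCGG stood in 5 of the 10 (33.1% of all windows), TATAAA in 1 (14.2%) and TAATTA in 1 (5.36%), counted on both strands. The TAATTA was in the Slc6a5 window. A match of letters is a description of the window and not of a bound factor.

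Relations across animals were taken on deviations from group means over the 24 arrays, with 4 relations computed. Gad1 and Gad2, the GABA synthesizing pair, varied together, with a Pearson r of 0.802 and a Spearman rho of 0.782 (permutation p 0.0003 and 0.00012, adjusted 0.0012 and 0.00048), and r was 0.728 without the 2 arrays farthest from the median of Gad1. Slc32a1 and Slc6a5 had r 0.605 and rho 0.546 (permutation p 0.0110 and 0.0138, adjusted 0.0219 and 0.0277), but r was 0.420 without the 2 arrays farthest from the median of Slc32a1 (permutation adjusted p 0.113) and 0.466 without 3-day animal 4 (adjusted p 0.0693), where rho was 0.484 (permutation adjusted p 0.0479). In the 12 uninjured arrays alone Slc32a1 and Slc6a5 had r 0.850 and rho 0.853 (permutation adjusted p 0.00328 and 0.0098). Gad1 and Gad2 had r 0.660 and rho 0.776 there (permutation adjusted p 0.108 and 0.0194). Slc32a1 with Gad2 (r 0.542, rho 0.383, permutation adjusted p 0.0725 and 0.135) and Slc17a6 with Slc32a1 (r 0.514, rho 0.390, adjusted p 0.106 and 0.135) did not pass. r was 0.253 and 0.125 for these without the 2 arrays. The array and its brightness are shared by both genes of a pair.

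**Figure D4:**
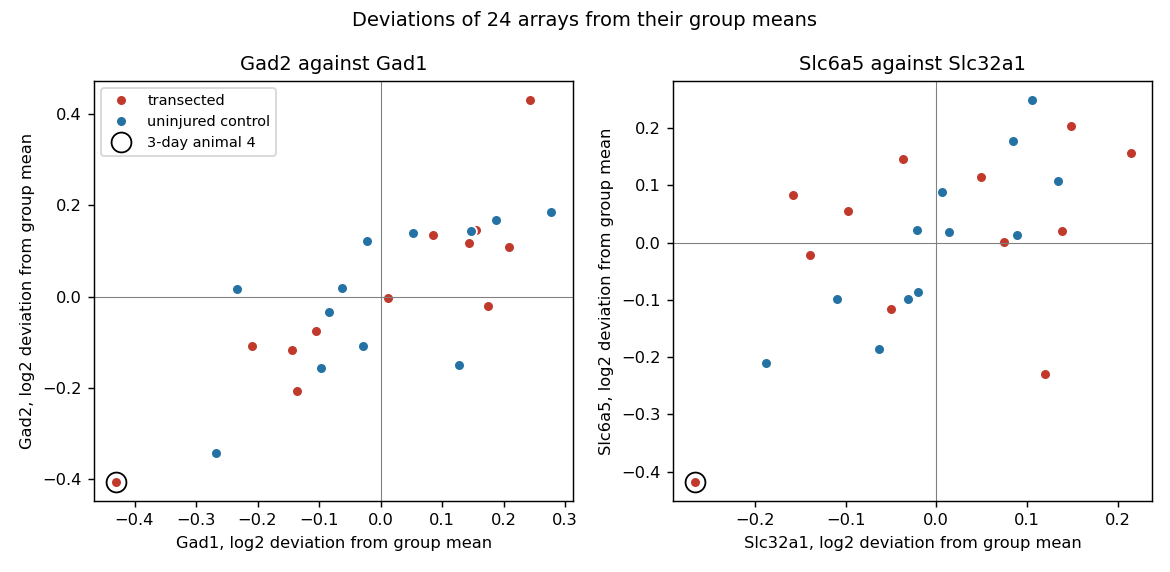
Deviation from the group mean, in log2, of Gad2 against Gad1 (left) and Slc6a5 against Slc32a1 (right) on 24 arrays, with transected animals in red and uninjured controls in blue. 3-day animal 4, circled, lies at the low end of both panels, and the Pearson r was 0.802 on the left and 0.605 on the right.

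Over all 24 arrays the log2 values most like those of Slc6a5, by Pearson r, were of Nsf (0.918), which takes apart the complexes that fuse vesicles, Serinc1 (0.900) and Rbfox1 (0.899), a neuronal splicing factor. Those most like Slc32a1 were of Emc4 (0.888), Shd (0.882) and Cadps (0.874), which primes dense core vesicles. Those most like Slc17a6 were of Npepps (0.806), Fbxo11 (0.803) and Ino80c (0.796). The number of genes with r over 0.8 was 106 for Slc6a5, 34 for Slc32a1 and 2 for Slc17a6. The arrays share group, brightness and cell content, and no test was made of these likenesses.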

How the data were processed

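RMA in GeneSpring GX was the authors' normalization of the 24 arrays. The deposited values were intensity on a linear scale (17 to 7979.81, with 2337 values at the lowest), and log2 of the deposited intensity was taken here. The scale was read from the values, and background correction is as deposited. Array number, not read depth, limits the precision. Probes took symbols from the platform annotation (1 symbol for 15097 probes, several for 323, none for 11922). Probes above the lowest 15 percent of mean log2 (5.05, an intensity of 33.2) were tested.

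Means of the 7 groups were fitted together in limma 3.58.1 (R 4.3.3) with empirical Bayes moderation and Benjamini-Hochberg adjustment over 23240 probes for each contrast. Calls needed an adjusted p under 0.05. Relations used permutation tests with 100000 resamples (scipy 1.17.1, two-sided). Fits were tested on simulated data. A t-test (2 groups, equal variances) was run on the same values. The paper tested the arrays by a 2-way analysis of variance, and used a t-test at each time for the genes it set against PCR. Further settings were filters, normalization, variance model, array weights, compared groups alone, pooled controls, a block for replicate number, and fits with single arrays left out. The comparison of transected animals at 1 month with 2 weeks, 4-day controls 1 and 2 alone, and relations without 3-day animal 4 were added after the data were seen.

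The members and gene lists were chosen with earlier results of these data known. All 10 members were named by rule, with called genes of each further list (up to 5), its highest-signal gene, and the 3 genes most like Slc17a6, Slc32a1 and Slc6a5. Chat and Ache, and the relation of Chat with Slc18a3, were not analysed here. Tables used pandas 2.3.3 and numpy 2.4.6 under Python 3.11.15, and plots matplotlib 3.10.9.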

Additional observations from a re-analysis of the deposited data

How the results depend on the processing

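No alternative made limma or the t-test call any of the 8 genes in the 4 transected-against-control comparisons. The smallest adjusted p was 0.0526 (limma), for Slc32a1 at 3 days against all 12 controls (log2 difference -0.27). Of 1343 refitted differences 0 reversed with a call, and 102 changed sign with no call on either side. Between 1-month and 2-week controls the main fit called 2 genes. The count was 1 under repeated quantile normalization, cyclic loess and the t-test, and 1 to 2 when single arrays were left out. Slc6a5 passed under all 17 alternatives (log2 difference 0.45 to 0.66, adjusted p 0.0019 to 0.0495) and Gad2 under 8 of 17 (0.31 to 0.58, adjusted p 0.0102 to 0.174). With the compared groups alone Slc17a7 passed in addition to Slc6a5 and Gad2 (limma adjusted p 0.0410), and it was lower at 1 month (log2 difference -0.35). The cause was not tested. With the replicate block Slc6a5 had an adjusted p of 0.0179 and Gad2 of 0.0482, and the block changed no other call. The labels do not say what the replicate numbers stand for. Deviations correlated at 0.02 on average over 55 same-number pairs of arrays and at -0.0063 over 189 other pairs. The correlation was over 0.1 in 8 of the 55 and in 16 of the 189. Whether animals with the same number shared any handling was not tested. Gad1 with Gad2 had r 0.660 and rho 0.776 in the 12 uninjured arrays alone (permutation adjusted p 0.108 and 0.0194). Slc32a1 with Slc6a5 had r 0.420 without the 2 arrays farthest from the median, r 0.466 and rho 0.484 without 3-day animal 4, and r 0.850 and rho 0.853 in the uninjured arrays, where the permutation adjusted p was 0.00328 and 0.0098. With 2 transected animals at 2 weeks and at 1 month, the intervals there were wider than at 3 days.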

Other observations

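Among genes that support each transmitter, a few passed the test at 3 days after transection. Of 11 further glutamatergic genes tested, 0 rose and 1 fell at 3 days: Slc38a2, a carrier of neutral amino acids including glutamine, averaged 9.05 ± 0.25 in transected animals and 9.79 ± 0.14 in 4-day controls (log2 difference -0.74, limma adjusted p 0.00593). Of 12 cholinergic genes, 2 rose and 0 fell, namely the choline transporter-like genes Slc44a1 (0.60, adjusted p 0.00976) and Slc44a2 (0.60, adjusted p 0.0101). Of 8 GABAergic genes Slc6a11, an astrocyte GABA carrier, fell by 1.34 (adjusted p 2.73e-05), and of 10 glycinergic genes Slc7a10, also an astrocyte carrier, fell by 0.82 (adjusted p 0.00023), with 0 rising in either list. Of 13 astrocyte markers, which include both, 4 were lower and 0 higher at 3 days, and the part of astrocyte content was not tested. All 3 carrier genes that fell were lower in every 3-day animal than in every 4-day control, while groups without overlap made up 5.51% of tested probes. The 3 were picked by their call in this same comparison, so the lack of overlap adds no further support. No gene of 12 for monoamines and histamine or of 27 spinal neuron class transcription factors passed at 3 days, against 2.89% of all tested probes. None of the 6 lists had a called gene at 1 week, 2 weeks or 1 month, where limma called 0% of tested probes.

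Signal in uninjured arrays is given for the brightest probe of each list, and as above it places probes and does not rank genes. The brightest probe was that of Slc1a2, a glial glutamate carrier, in the glutamatergic list (11.11 in log2) and Slc6a11 in the GABAergic list (10.14). It was that of Dld in the glycinergic list (10.75), Slc44a1 in the cholinergic list (10.48), Ddc in the monoamine list (7.07) and Pax2, a factor of inhibitory spinal neurons, among the transcription factors (7.12). The monoamine list, whose neurons are not native to the thoracic gray matter, had a median of 5.59. Between 1-month and 2-week controls, where 10.2% of tested probes were called and 6.18% were called higher, 4 glutamatergic, 2 GABAergic, 4 glycinergic and 2 cholinergic genes were higher at 1 month and 0 lower. Of these, Slc1a2, Slc6a11 and Slc7a10 are also among the 13 astrocyte markers, 7 of which were higher at 1 month, and the part of astrocyte content was not tested. Among the higher genes were Slc6a9, the glial glycine carrier GlyT1 (9.86 ± 0.08 in 1-month controls and 9.26 ± 0.20 in 2-week controls, limma adjusted p 0.00683), and Abat, which breaks down GABA (10.15 ± 0.07 in 1-month controls and 9.61 ± 0.23 in 2-week controls, adjusted p 0.0202). Slc6a3, Lmx1b and Tfap2b were lower at 1 month (log2 differences of -0.34, -0.32 and -0.60). Slc6a9, Abat, Slc6a3, Lmx1b and Tfap2b were named after their values were seen.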
